A study of Homo sapiens with 20 samples.

Results

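The mRNAs of complex I were followed in exosomes and in RNA granules. Both came from HEK293, a cell line of human embryonic kidney. The set holds 44 nuclear genes that carry an NDUF symbol: structural subunits of the enzyme and the assembly factors named NDUFAF. They were taken by symbol from a list, out of 62266 genes named in the data. Reads were summed over all transcripts of a gene, and all 44 genes had enough reads to be tested in each of the 5 comparisons below.

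The study sequenced total RNA from 4 groups of 5 libraries, described as biological replicates: exosomes of control cells, exosomes of HD-induced cells, RNA granules of control cells and RNA granules of HD-induced cells. HD stands for Huntington's disease, and all 4 groups came from the one cell line. The labels do not say how HD was induced, or with which allele or agent. The granule samples are cytoplasmic RNA granule cores by their protocol and are titled SG. The questions were which mRNAs differ between exosomes and granules, and whether either content differs with HD.

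Complex I, the NADH:ubiquinone oxidoreductase, is the entry point of the mitochondrial respiratory chain. It takes electrons from NADH through a flavin and a chain of iron-sulfur clusters to ubiquinone and pumps protons across the inner mitochondrial membrane. Its matrix arm holds the catalytic core subunits that are encoded in the nucleus, and its membrane arm holds the core subunits that are encoded in mitochondrial DNA. Accessory subunits surround both arms, and assembly factors help to build the enzyme without staying in it. Nuclear-encoded subunits are made in the cytosol and imported, so their mRNAs can be found outside mitochondria.

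Reads on named genes ranged from 5300770 to 9039448 in control exosomes, from 11355356 to 24514989 in control granules and from 17729424 to 23898884 in HD granules. HD exosomes 1, 2, 3 and 5 held 7405993, 1941886, 1327496 and 3003716, while HD exosome 4 held 713 on named genes (1074 in all) and 2 on the complex I genes. The tests kept HD exosome 4, but levels and means of HD exosomes are given over the other 4 libraries. HD exosome 2 had 86.6% of its reads on entries without a gene name, against 24.9% to 59.2% in the control libraries. HD granule 3 correlated more closely with the mean control exosome (r = 0.934 over 16154 genes, on log levels) than with the mean control granule (r = 0.913), whereas the other 9 granule libraries reached at most 0.891 with the former and at least 0.964 with the latter. Results that rest on HD groups are therefore also given without these 3 libraries.

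Coding sequences of 6 members show the range of the results that follow. The first 3 are core subunits of the matrix arm whose mRNAs were lower in granules, and the last 3 are accessory subunits whose mRNAs were higher. Each line gives the first 210 bases of the coding sequence, 5′ to 3′, read from GENCODE 29 transcripts on GRCh38, with a G or C at the third position of a codon in capitals.
NDUFV1: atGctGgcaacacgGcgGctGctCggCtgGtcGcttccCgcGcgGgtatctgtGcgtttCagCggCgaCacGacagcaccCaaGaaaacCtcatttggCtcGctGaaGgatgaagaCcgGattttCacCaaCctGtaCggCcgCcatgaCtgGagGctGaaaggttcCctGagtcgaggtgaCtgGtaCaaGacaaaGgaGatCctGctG
NDUFS7: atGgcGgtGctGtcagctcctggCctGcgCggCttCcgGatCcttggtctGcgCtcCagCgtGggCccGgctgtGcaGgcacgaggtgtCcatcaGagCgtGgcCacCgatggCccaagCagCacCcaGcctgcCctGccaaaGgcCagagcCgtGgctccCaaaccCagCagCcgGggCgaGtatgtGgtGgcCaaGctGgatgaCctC
NDUFS8: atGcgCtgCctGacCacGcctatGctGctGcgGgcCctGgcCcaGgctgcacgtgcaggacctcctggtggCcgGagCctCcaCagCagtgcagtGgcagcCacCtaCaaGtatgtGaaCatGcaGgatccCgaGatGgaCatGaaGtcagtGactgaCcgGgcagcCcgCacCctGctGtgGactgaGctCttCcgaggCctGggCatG
NDUFS5: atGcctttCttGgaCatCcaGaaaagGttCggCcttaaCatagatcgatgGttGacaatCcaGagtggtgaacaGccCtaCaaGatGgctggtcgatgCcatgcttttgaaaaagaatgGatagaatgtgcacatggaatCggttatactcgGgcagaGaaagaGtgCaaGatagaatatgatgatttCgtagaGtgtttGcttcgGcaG
NDUFS4: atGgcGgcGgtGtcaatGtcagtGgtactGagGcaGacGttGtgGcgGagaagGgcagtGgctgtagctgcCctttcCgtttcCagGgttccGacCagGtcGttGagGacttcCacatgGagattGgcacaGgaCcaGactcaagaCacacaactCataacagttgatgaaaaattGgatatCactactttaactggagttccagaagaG
NDUFC1: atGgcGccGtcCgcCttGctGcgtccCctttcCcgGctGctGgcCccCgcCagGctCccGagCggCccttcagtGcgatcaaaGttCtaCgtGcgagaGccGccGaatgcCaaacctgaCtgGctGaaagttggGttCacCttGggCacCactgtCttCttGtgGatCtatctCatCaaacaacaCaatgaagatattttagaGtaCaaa
The capitals mark 49, 51 and 51 of 70 codons in NDUFV1, NDUFS7 and NDUFS8. They mark 32, 36 and 48 of 70 in NDUFS5, NDUFS4 and NDUFC1. Over the whole coding sequence, 72.5%, 84.6% and 81.5% of codons ended in G or C in the first 3, and 50.5%, 44.9% and 64.9% in the last 3. The NDUFC1 sequence is that of NDUFC1-201, which held 7.27% of the gene's reads in control exosomes and 7.76% in control granules. Most NDUFC1 reads, 72.9% and 81.8%, were on NDUFC1-202, which has no defined coding sequence. NDUFV1 lies at chr11:67606936-67612554, NDUFS7 at chr19:1383907-1395584 and NDUFS8 at chr11:68030681-68036644. NDUFS5 lies at chr1:39026350-39034615, NDUFS4 at chr5:53560639-53683338 and NDUFC1 at chr4:139289917-139302551 (gene spans from RefSeq on GRCh38.p14).

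Complex I mRNAs made up a larger part of granule RNA than of exosome RNA in control cells. Out of every 1000000 estimated reads of a library, the 44 genes held 1568, 1710, 1491, 1604 and 1655 reads in control exosomes 1 to 5. In control granules 1 to 5 they held 2213, 1722, 3037, 3363 and 3284. The lowest granule library stood just above the highest exosome library. The means were 1606 ± 83.5 (SD, n = 5) in exosomes and 2724 ± 722 (SD, n = 5) in granules, a ratio of 1.70. Over reads on named genes alone the means were 2719 ± 32.7 and 4360 ± 673 per 1000000. Every level here is a share of its library, so fewer vesicles, granules or cells of a type and less RNA in each cannot be told apart.

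The sum hid a split by role. Levels from here on are counts per 1000000 reads on named genes, scaled by trimmed means of M values (TMM) and called CPM, which can be compared between libraries for a gene but not between genes of different length. Their TMM factors come from all 20 libraries, while each log2 fold change uses the factors of its own comparison. A fold change can therefore differ slightly from the ratio of the printed levels. Summed CPM of the 6 core subunits in the set was 706 ± 66.1 in control exosomes and 412 ± 48.3 in control granules (SD, n = 5 each, as in all means of control groups). The other roles ran the other way. Accessory subunits of the matrix arm went from 552 ± 39.5 in exosomes to 888 ± 201 in granules. Those of the membrane arm next to the matrix arm, the proximal part, went from 697 ± 23.2 to 1599 ± 319, and those of the distal part from 695 ± 20 to 1411 ± 316. Assembly factors went from 243 ± 11.5 to 406 ± 70.5.

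**Figure D1:**
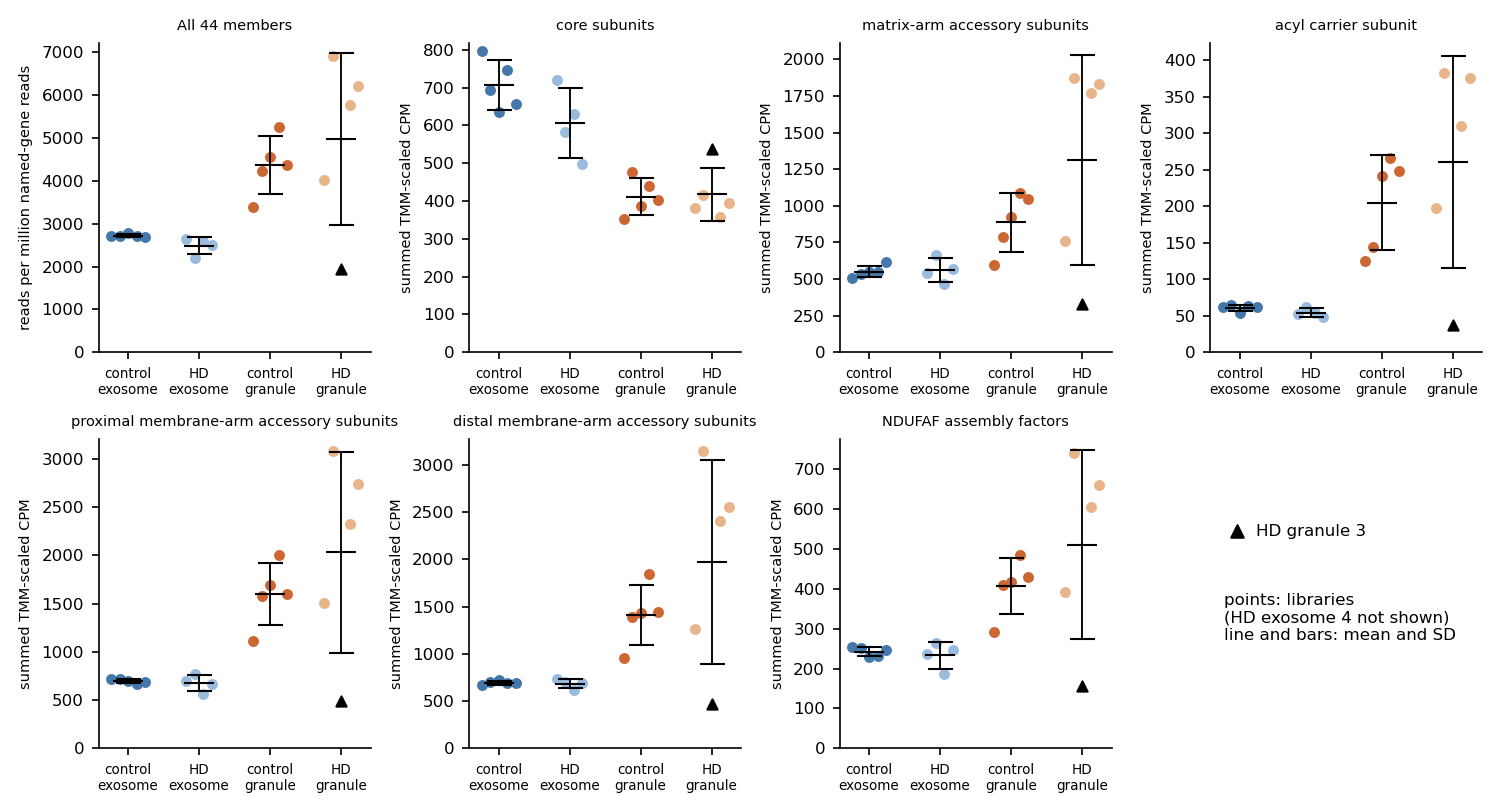
Summed TMM-scaled CPM of the complex I genes by role (vertical axes, one panel a role) and reads on all 44 genes per 1000000 named-gene reads (first panel) in each library of the 4 groups (horizontal axis), with points for libraries, lines and bars for means and SD, a triangle for HD granule 3 and HD exosome 4 not shown. Core subunits are the role with the higher sum in control exosomes (706 against 412 in control granules), and HD granule 3 lies apart from the other HD granules, with 537 for core subunits and 495 for the proximal membrane arm.

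Gene by gene, 27 of the 44 were higher in control granules than in control exosomes, against 30.0% of the 14777 genes tested. Another 8 were lower, against 32.5% of all genes, and 9 were not called (edgeR's quasi-likelihood test, Benjamini-Hochberg adjusted p under 0.05 over all genes). The median log2 fold change, granules over exosomes, was 0.81 for the 44 and -0.02 for all genes tested. Under the size factors of DESeq2 the medians were 0.93 and 0.09, and the difference between them, 0.83, was the same. At an unadjusted p under 0.05 there were 36 members, against 66.3% of all genes. At 2-fold or more, 19 called genes were higher and 6 were lower. The share of all genes at that cut is not given here, so these counts have no background beside them. In 22 genes all 5 granule libraries stood above all 5 exosome libraries, against 26.2% of all genes. In 6 genes they all stood below, against 23.2%. The share of complex I genes that were higher was thus above the background and the share that were lower was below it.

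Marker RNAs of other cell types and of the kidney line were measured in the same libraries. Summed CPM of 11 blood cell markers was 79.6 to 304 in control exosomes, where 9 of 11 had reads and HBD and PPBP were at 0. In control granules it was 11.3 to 42.9, with 7 of 11 having reads and HBD, PPBP, PF4 and RGS18 at 0. For the 11 of 12 listed keratinocyte markers that were found, the sums were 9.47 to 118 in control exosomes, with all 11 having reads, and 1.69 to 3.07 in control granules, with FLG and SPRR1B at 0. All 10 markers of the embryonic kidney line had reads in both groups, with sums of 1542 to 1857 in exosomes and 574 to 1115 in granules. The source of these RNAs and their part in the results were not tested.

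Core subunits carry the flavin and the iron-sulfur clusters of the matrix arm. Of the 6, 4 were lower in control granules (NDUFV1, NDUFS7, NDUFS8 and NDUFS3), NDUFV2 was higher and NDUFS1 was not called. Their median log2 fold change was -1.23. Of all genes tested 32.5% were lower and 30.0% higher.

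NDUFV1 binds the flavin that accepts electrons from NADH. It stood at 244, 158, 147, 199 and 151 CPM in control exosomes 1 to 5 and at 60.2, 72.3, 51, 55.2 and 35.7 CPM in control granules 1 to 5. The groups did not overlap, with the lowest exosome library at 147 CPM and the highest granule library at 72.3 CPM. The log2 fold change was -1.80 ± 0.20 (SE; edgeR adjusted p = 1.3e-05). NDUFS7, which carries the last iron-sulfur cluster before ubiquinone, had 106, 66.3, 70.1, 86.5 and 62.2 CPM in control exosomes. In control granules it had 20.1, 54.1, 15, 21.7 and 9.34 CPM. All granule libraries were lower, control granule 2 by the least, with a log2 fold change of -1.79 ± 0.39 (SE; edgeR adjusted p = 0.0018). NDUFS8, its neighbour in the electron path, fell from 184, 142, 131, 162 and 131 CPM in control exosomes to 41.4, 83.9, 37.1, 47.1 and 22.2 CPM in control granules. Here too the groups did not overlap, control granule 2 was the nearest to the exosomes, and the log2 fold change was -1.78 ± 0.29 (SE; edgeR adjusted p = 0.00021).

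NDUFS3, a core subunit near the ubiquinone site, had 73.6, 81.5, 75.6, 86.1 and 77.5 CPM in control exosomes against 32.9, 60.1, 46.8, 76.3 and 45.6 CPM in control granules. Control granule 4 reached into the exosome range, and the log2 fold change was -0.68 ± 0.19 (SE; edgeR adjusted p = 0.0091). NDUFV2 holds an iron-sulfur cluster next to the flavin and was the one core mRNA called higher. Its levels were 16.6, 32.5, 29.7, 30.0 and 25.5 CPM in control exosomes against 25.0, 33.5, 44.8, 69.1 and 73.0 CPM in control granules, so the groups overlapped. The log2 fold change was 0.78 ± 0.29 (SE; edgeR adjusted p = 0.034). This call was lost on leaving out control exosome 1, 3, 4 or 5 or control granule 4 or 5 (log2 fold changes 0.64 to 0.82, edgeR adjusted p 0.051 to 0.082). NDUFS1, the largest subunit of the matrix arm, had 173, 214, 182, 183 and 208 CPM in exosomes and 173, 173, 191, 172 and 217 CPM in granules of control cells. Its log2 fold change was -0.14 ± 0.10 (SE; edgeR adjusted p = 0.23). Core subunits of the same arm thus ranged from a 3.48-fold lower level (NDUFV1) to a higher one (NDUFV2). On the log2(TPM + 1) scale NDUFV2 was not called (0.56). After a correction for GC content NDUFS3 and NDUFV2 lost their calls (-0.02 and 0.34 on the log2 scale) and NDUFS1 was called lower (-0.62), while NDUFV1, NDUFS7 and NDUFS8 kept theirs at -1.02, -1.44 and -1.17.

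Accessory subunits of the matrix arm divided as 6 higher and 3 lower of 9, against 30.0% and 32.5% of all genes. Their median was 0.94, and the share that was lower was near that of all genes. NDUFS4, a subunit needed for a stable flavin-binding module, had 15.8, 32.6, 23, 23.1 and 28.8 CPM in control exosomes. In control granules it had 154, 132, 220, 218 and 232 CPM, so every granule library stood far above the highest exosome library. The log2 fold change was 2.87 ± 0.22 (SE; edgeR adjusted p = 6.5e-07). NDUFV3, which sits on the same module, went the opposite way, from 201, 164, 182, 200 and 215 CPM in control exosomes to 59.9, 88.3, 89.1, 104 and 91.5 CPM in control granules. Its groups did not overlap either, and the log2 fold change was -1.24 ± 0.14 (SE; edgeR adjusted p = 1.4e-05). The protein-coding transcripts of NDUFV3 did not change alike. NDUFV3-202 held 50.4% ± 5.57 of the gene's reads in control exosomes and 0.38% ± 0.25 in control granules (SD). NDUFV3-201 held 42.4% ± 3.99 and 87.0% ± 2.19. NDUFS6, a zinc-binding subunit, was lower by -1.0 ± 0.24 on the log2 scale, with 25.0 to 32.2 CPM in exosomes and 7.95 to 23.5 CPM in granules. NDUFA9, an NADPH-binding subunit at the foot of the arm, was lower by -0.51 ± 0.20 (edgeR adjusted p = 0.038). That call was lost on leaving out control exosome 2, 3, 4 or 5 or control granule 1, 2, 3 or 5 (log2 fold changes -0.34 to -0.53, edgeR adjusted p 0.054 to 0.20).

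The remaining higher members of this role were NDUFA12 at 1.57 ± 0.22, NDUFA6 at 1.40 ± 0.17, NDUFA5 at 1.10 ± 0.12, NDUFA2 at 0.94 ± 0.21 and NDUFA7 at 0.78 ± 0.26 (log2 fold change ± SE). NDUFA12 joins late in assembly, in the place first held by the assembly factor NDUFAF2. NDUFA6 is one of the subunits that dock the acyl carrier protein. NDUFA7 lost its call without control exosome 1, 2 or 4 (0.69 to 0.70, edgeR adjusted p 0.055 to 0.057) and after a correction for transcript length (0.55). NDUFA7 and NDUFA5 were not called on the log2(TPM + 1) scale (0.31 and 0.42). With the GC correction NDUFS6 was no longer called (-0.36) and NDUFA5 turned to -0.24 and was called lower.

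NDUFAB1 is the mitochondrial acyl carrier protein, a subunit of complex I that also serves fatty acid synthesis. It stood at 61.0 ± 4.0 CPM in control exosomes against 205 ± 65.0 CPM in control granules, a log2 fold change of 1.66 ± 0.20 (SE; edgeR adjusted p = 2.2e-05). It was thus close to the membrane-arm subunits in size of change.

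In the proximal membrane arm 6 of 9 mRNAs were higher, none was lower and 3 were not called (NDUFA8, NDUFA10 and NDUFA11), with a median of 1.55. The shares of all genes were 30.0% higher and 32.5% lower. NDUFA1, a small single-span subunit encoded on the X chromosome, had 36.9, 42.1, 46.4, 33.9 and 44.5 CPM in control exosomes against 127, 182, 176, 196 and 170 CPM in control granules. All granule libraries stood far above all exosome libraries, with a log2 fold change of 1.97 ± 0.14 (SE; edgeR adjusted p = 4.3e-07). NDUFC1, another small membrane subunit, went from 21.1, 24.7, 25.5, 24.1 and 29.6 CPM to 76.1, 109, 108, 117 and 116 CPM in the same libraries. Its log2 fold change was 1.99 ± 0.14 (SE; edgeR adjusted p = 4.7e-07), and control granule 1 was the lowest of the granules for both genes. NDUFA13, also known as GRIM-19, had 101, 95.7, 107, 115 and 98.4 CPM in control exosomes against 236, 446, 355, 461 and 322 CPM in control granules. It was higher by 1.73 ± 0.17 on the log2 scale (SE; edgeR adjusted p = 5.0e-06), again without overlap.

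NDUFS5, a small cysteine-rich subunit on the intermembrane side, showed the largest log2 fold change of the 44, 3.01 ± 0.45 (SE; edgeR adjusted p = 0.00011). Its levels were low in exosomes, at 4.29, 10.9, 8.14, 0.816 and 8.32 CPM, against 33.3, 49.2, 72.2, 76.6 and 50.9 CPM in control granules. NDUFC2, a small subunit that pairs with NDUFC1, was higher by 1.55 ± 0.18, and NDUFA3 by 0.93 ± 0.21. NDUFA3 lost its call after a correction for transcript length (0.02). Of the 3 not called, NDUFA10, a subunit of nucleoside kinase fold, was nearly level, at 177 ± 9.05 CPM in exosomes and 187 ± 17.4 CPM in granules (log2 fold change -0.01 ± 0.09). NDUFA8 was at 0.08 ± 0.28 and NDUFA11 at -0.16 ± 0.24 (SE), the latter turning to 0.56 and called higher after GC correction.

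In the distal membrane arm 7 of 11 mRNAs were higher, NDUFB10 was lower and NDUFB7, NDUFB8 and NDUFB11 were not called, with a median of 1.24. Among all genes 30.0% were higher and 32.5% lower. NDUFB3 had the smallest p of all members. It stood at 43.3, 53.3, 51.5, 52.2 and 55.8 CPM in control exosomes and at 158, 158, 177, 212 and 190 CPM in control granules. Libraries of a group lay close together and the groups far apart, with a log2 fold change of 1.72 ± 0.12 (SE; edgeR adjusted p = 3.1e-07). NDUFB10, a subunit with disulfide bonds on the intermembrane side, had 42.7, 69.5, 62.9, 50 and 47.7 CPM in control exosomes against 18.7, 26.8, 20.7, 30.8 and 19.9 CPM in control granules. It was lower in all granule libraries, by -1.31 ± 0.19 on the log2 scale (SE; edgeR adjusted p = 9.1e-05), while its neighbours in the same arm were higher or not called.

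NDUFB9, a LYR-motif protein that docks the acyl carrier protein in the distal arm, had 36.7, 40.1, 49.4, 42.2 and 40.7 CPM in control exosomes against 84.6, 166, 182, 264 and 179 CPM in control granules. It was higher by 1.98 ± 0.24, NDUFB1 by 1.71 ± 0.19, NDUFB6 by 1.65 ± 0.17, NDUFB4 by 1.44 ± 0.17, NDUFB5 by 1.24 ± 0.16 and NDUFB2 by 1.22 ± 0.17 (log2 fold change ± SE). The 3 not called were NDUFB8 at 0.28 ± 0.25, NDUFB7 at -0.11 ± 0.30 and NDUFB11 at -0.14 ± 0.21. After GC correction these 3 were called higher, at 0.81, 0.44 and 0.62.

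Assembly factors named NDUFAF were higher in 6 of 8 cases, against 30.0% of all genes, with a median of 0.63. None was lower, against 32.5% of all genes. NDUFAF2, a chaperone for the late addition of the NADH-binding module, had 7.23, 11.4, 9.92, 7.75 and 13.5 CPM in control exosomes against 24.4, 32.2, 39.5, 52.4 and 50.6 CPM in control granules. It showed the largest change of this role at 1.91 ± 0.25 (log2 fold change ± SE; edgeR adjusted p = 3.4e-05), without overlap of the groups. NDUFAF4, which works with NDUFAF3 on the ubiquinone module, was higher by 1.36 ± 0.19, while NDUFAF3 itself was not called at -0.17 ± 0.25. NDUFAF6 was higher by 0.83 ± 0.20 and NDUFAF8, the partner of NDUFAF5, by 0.70 ± 0.17. NDUFAF8 was not called after the length correction (0.18), nor NDUFAF5, NDUFAF6 and NDUFAF7 on the log2(TPM + 1) scale (0.37, 0.43 and 0.14). NDUFAF5, which hydroxylates NDUFS7, was higher by 0.56 ± 0.19 and lost its call without control exosome 1 or 3 (0.49 and 0.51, edgeR adjusted p = 0.059 for each). The methyltransferase NDUFAF7 was higher by 0.46 ± 0.17 and lost its call without control exosome 1, 3 or 4 (0.38 to 0.44, edgeR adjusted p 0.072 to 0.083). NDUFAF1, a member of the assembly complex of the membrane arm, was not called at -0.45 ± 0.19 (edgeR adjusted p = 0.052) and was called lower without control exosome 1 (-0.55, edgeR adjusted p = 0.026). With the GC correction NDUFAF4, NDUFAF5 and NDUFAF7 were not called (0.21, 0.05 and 0.09), NDUFAF1 was lower at -0.78 and NDUFAF3 turned to 0.62 and was called higher.

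**Figure D2:**
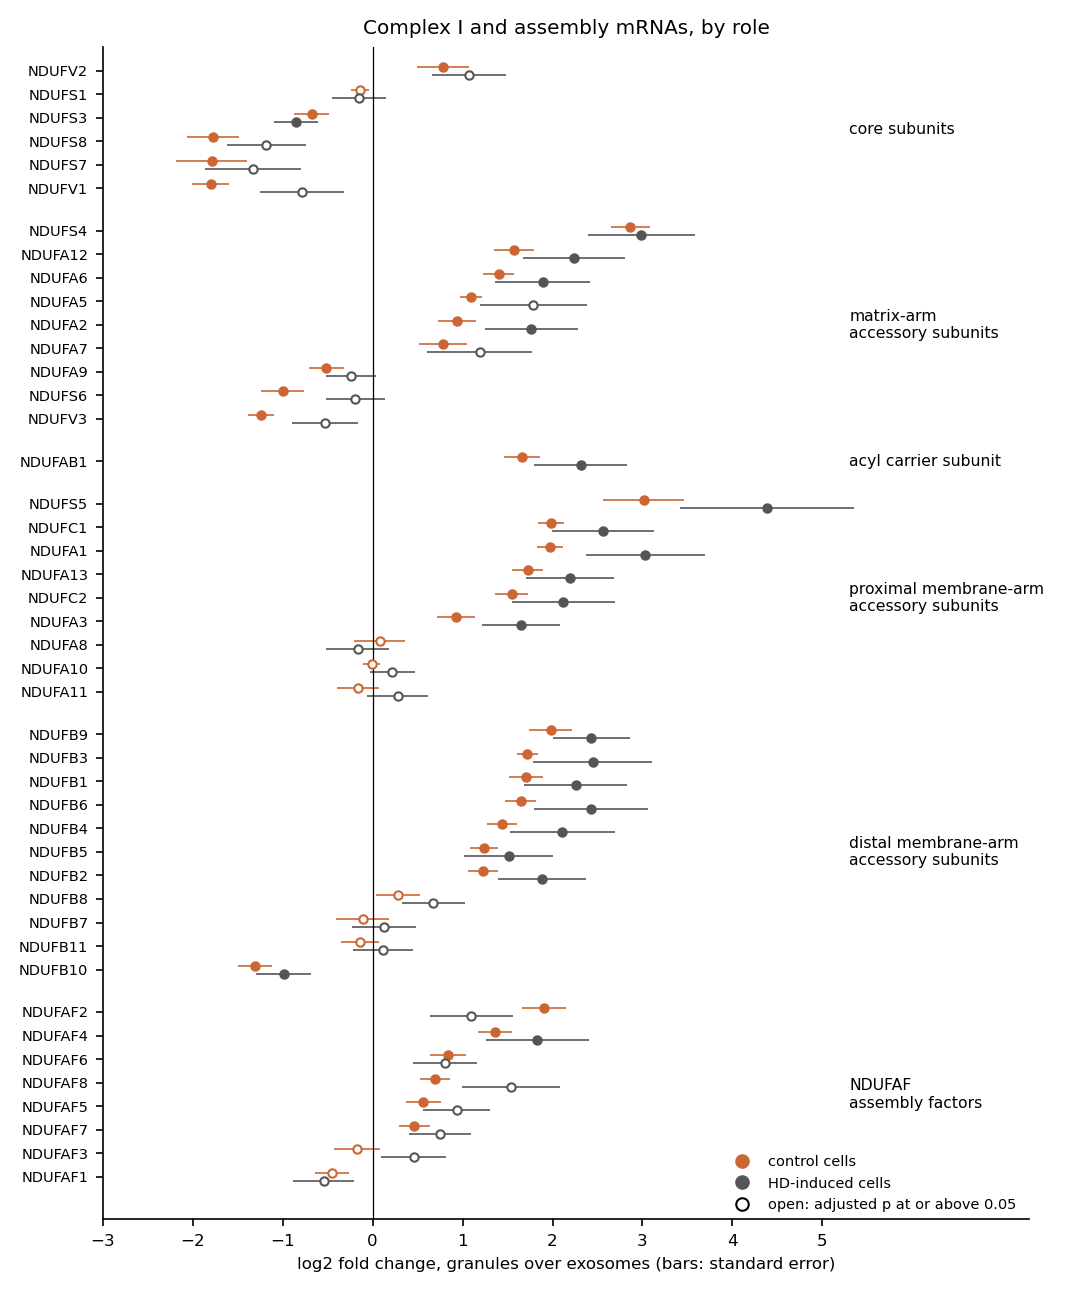
Log2 fold change of granules over exosomes (horizontal axis, points with SE bars) for each of the 44 complex I genes, grouped by role, in control and HD-induced cells, with open points where the adjusted p was 0.05 or more. NDUFV1, NDUFS7 and NDUFS8 lie near -1.8 in control cells, whereas NDUFS5 at 3.01 and NDUFS4 at 2.87 lie farthest to the other side.

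Per unit of transcript length, in the TPM values (transcripts per 1000000) that the authors deposited, the order of the members changed between the compartments. NDUFC2 was first in both, with 136 ± 5.94 TPM in control exosomes and 324 ± 119 TPM in control granules. In control exosomes NDUFS8 came second at 68.0 ± 10 TPM, followed by NDUFA11, NDUFB8 and NDUFB2 at 64.6 ± 9.34, 63.0 ± 7.32 and 55 ± 9.29 TPM, 4 neighbours that did not differ beyond their spread. In control granules NDUFA13 and NDUFA1 came next after NDUFC2, at 194 ± 42.1 and 189 ± 36.6 TPM, which also did not differ beyond their spread. NDUFS8 was then at place 32 with 15.3 ± 3.99 TPM, and NDUFS4 had moved from place 33 with 14.9 TPM to place 10 with 90.6 TPM. NDUFAF1 was last of the 44 in both, at 2.84 and 2.12 TPM. The assembly factors NDUFAF7, NDUFAF2, NDUFAF5 and NDUFAF1 held the last 4 places in control exosomes, each under 5 TPM.

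Granules of HD-induced cells differed from their exosomes in the same direction as in control cells, with fewer calls. Of the 44 genes, 19 were higher in HD granules than in HD exosomes, against 11.9% of the 14431 genes tested. Another 2 were lower, NDUFS3 and NDUFB10, against 5.77% of all genes. The median log2 fold change was 1.14 for the 44 and 0.17 for all genes. All 19 were also higher in control cells, both lower ones were also lower there, and no gene had opposite calls. By role, 6 of 9 proximal and 7 of 11 distal membrane-arm subunits were higher, as were 4 of 9 matrix accessory subunits, NDUFAB1 (2.32 ± 0.52) and 1 of 8 assembly factors (NDUFAF4, 1.83 ± 0.57). None of the 6 core subunits was. At an unadjusted p under 0.05 there were 30 members, against 33.9% of all genes. As a part of all reads, the 44 genes held 1627, 295, 1737 and 1771 per 1000000 in HD exosomes 1, 2, 3 and 5. They held 2638, 4689, 1212, 3933 and 4510 per 1000000 in HD granules 1 to 5, so that HD granule 3 stood below 3 of these exosome libraries. Over reads on named genes alone they held 2652, 2194, 2585 and 2503 per 1000000 in HD exosomes 1, 2, 3 and 5.

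NDUFB9 had 46.4, 32.0, 33.8 and 37.9 CPM in HD exosomes 1, 2, 3 and 5, and 172, 248, 58.4, 172 and 339 CPM in HD granules 1 to 5. HD granule 3 was by far the lowest granule library but still stood above every exosome library, and the log2 fold change was 2.43 ± 0.43 (SE; edgeR adjusted p = 0.0048). NDUFS4 had 29.6, 48.4, 26.4 and 48.3 CPM in those exosomes and 173, 395, 34.8, 463 and 402 CPM in HD granules. NDUFA1 had 33.7, 54.8, 22 and 27.4 CPM against 141, 401, 21.8, 431 and 365 CPM. HD granule 3 lay within the exosome range for NDUFS4 and just below it for NDUFA1, and the other 4 granules stood at 141 CPM or more for both. Their log2 fold changes were 2.99 ± 0.60 and 3.03 ± 0.66 (SE; edgeR adjusted p = 0.0070 and 0.0095). NDUFS5 had reads in a single HD exosome library, at 10.3 CPM in HD exosome 1, and 14.3 to 130 CPM in HD granules. NDUFB3 ranged from 29.3 to 622 CPM in HD granules, again with HD granule 3 lowest, and its log2 fold change was 2.45 ± 0.66 (SE; edgeR adjusted p = 0.023).

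NDUFS3 was lower in HD granules, with 75.7, 81.2, 69.1 and 81.9 CPM in HD exosomes 1, 2, 3 and 5 and 44.3, 42.6, 47.6, 34.3 and 37.4 CPM in HD granules 1 to 5. These groups did not overlap, and the log2 fold change was -0.85 ± 0.25 (SE; edgeR adjusted p = 0.032). NDUFB10 had 59.8, 43.4, 55.1 and 53.4 CPM against 21.0, 25.9, 41.7, 15.9 and 25.5 CPM, with HD granule 3 the closest to the exosomes (-0.99 ± 0.31, edgeR adjusted p = 0.040). NDUFS8 had 162, 84.8, 146 and 42.2 CPM against 43.8, 53.3, 85.2, 23.2 and 26.1 CPM and was not called, at -1.18 ± 0.44 (SE; edgeR adjusted p = 0.076). HD exosome 5 fell among the granules for NDUFS8, and so it did for NDUFS7, with 17.3 CPM against 58.4 to 77.1 CPM in HD exosomes 1, 2 and 3. NDUFV1 had 199, 99, 115 and 62.8 CPM in these exosomes and 56.4, 45.1, 163, 37.8 and 32.9 CPM in HD granules, with HD granule 3 alone inside the exosome range (-0.79 ± 0.47, edgeR adjusted p = 0.25). Among the other core subunits NDUFV2 was at 1.07 ± 0.41 and NDUFS1 at -0.15 ± 0.30, neither called.

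The counts in HD-induced cells moved with single libraries. Without HD exosome 1, HD exosome 3, HD granule 2 or HD granule 5 the number of higher members was 12, 7, 9 or 12, against 9.18%, 7.74%, 5.74% and 5.82% of all genes tested. Without HD exosome 4 alone 16 members were higher and 2 lower, against 10.2% and 7.85% of 16171 genes. NDUFS3 and NDUFB10 lost their calls on leaving out any one library except HD exosome 4 or HD granule 3, with values of -0.80 to -0.90 for NDUFS3 and -0.87 to -1.04 for NDUFB10. Without HD granule 3 alone 28 members were higher and 5 lower, against 21.3% and 17.4% of 13780 genes. Without the 3 libraries named above 25 were higher, against 18.6% of 16455 genes, and 5 were lower, against 16.4%, with a median of 1.61 for the members and 0.07 for all genes. The 5 lower ones were then NDUFV1 at -1.60 ± 0.37, NDUFS7 at -1.99 ± 0.55, NDUFS8 at -1.72 ± 0.46, NDUFS3 at -0.97 ± 0.21 and NDUFB10 at -1.39 ± 0.25, each also lower in control cells. All 25 higher ones were also higher in control cells, and NDUFA1 and NDUFS4 reached 3.53 ± 0.41 and 3.32 ± 0.40. With DESeq2's size factors in edgeR the medians were 1.27 and 0.32. Then 22 members were higher and none lower, against 17% and 4% of all genes. The share of higher genes among all those called went from 67.4% to 81.0%. That share was 48% with voom, 49.9% with no filter on low counts, 58.5% with the GC correction, 53.2% without the 3 libraries and 97.6% of the few genes called on the log2(TPM + 1) scale.

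**Figure D3:**
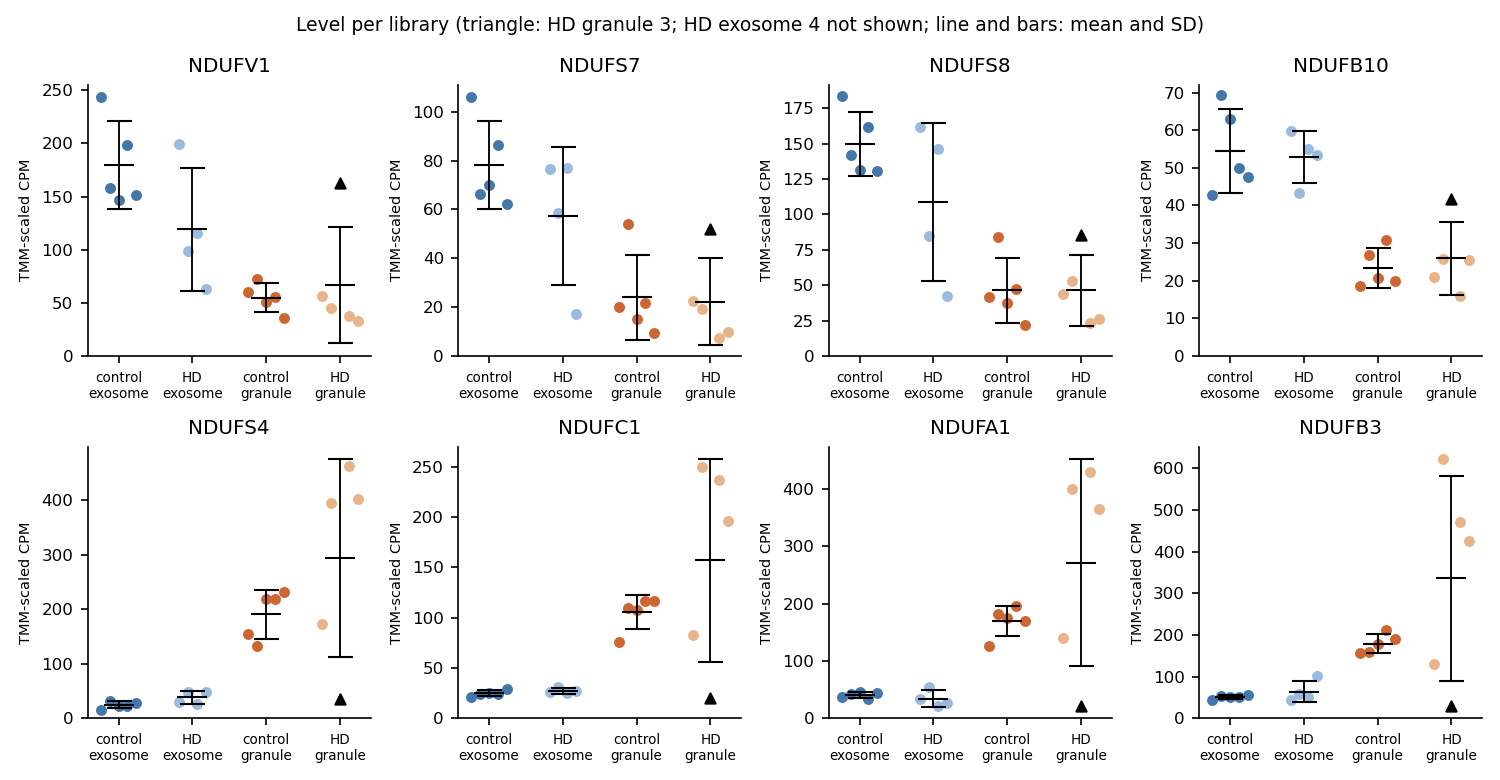
TMM-scaled CPM (vertical axes) of NDUFV1, NDUFS7, NDUFS8, NDUFB10, NDUFS4, NDUFC1, NDUFA1 and NDUFB3 in each library of the 4 groups (horizontal axis), with points for libraries, lines and bars for means and SD, a triangle for HD granule 3 and HD exosome 4 not shown. NDUFS4 and NDUFA1 stand higher and NDUFV1 and NDUFS8 lower in granules than in exosomes of control cells, and HD granule 3 lies near the exosomes (34.8 CPM for NDUFS4, 163 CPM for NDUFV1).

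Between HD and control exosomes none of the 44 genes was called, against 0.0% of the 12936 genes tested (edgeR), and none was called with DESeq2. At an unadjusted p under 0.05 there were 3 members, against 7.58% of all genes (980). The median log2 fold change, HD over control, was -0.02 for the members and -0.03 for all genes. Without the 3 libraries 4 members had an unadjusted p under 0.05, against 3.47% of all genes, and none was called.

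The member with the smallest p was the assembly factor NDUFAF2. It had 14.9, 32.8, 22 and 30.3 CPM in HD exosomes 1, 2, 3 and 5 against 7.23 to 13.5 CPM in control exosomes, so all 4 HD libraries were above all 5 controls. Its log2 fold change was 1.32 ± 0.30 (SE; edgeR adjusted p = 0.60). Without HD exosome 1 the call changed, with NDUFAF2 at 1.53 (edgeR adjusted p = 0.017) and NDUFAF3 at -0.93 (edgeR adjusted p = 0.049). NDUFS5, which had no reads in the HD exosomes then left, was called as well, and no fold is given for it. In that setting 0.565% of 13088 genes were called higher and 3.23% lower.

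NDUFAF3 had 71.6, 29.2, 49.2 and 35.0 CPM in the HD exosomes and 61.7 to 95.9 CPM in controls, with a log2 fold change of -0.63 ± 0.25 (SE; edgeR adjusted p = 0.60). NDUFS4 had 29.6, 48.4, 26.4 and 48.3 CPM against 15.8 to 32.6 CPM, with overlap, at 0.63 ± 0.26 (SE; edgeR adjusted p = 0.60). NDUFB4 had 87.6, 97.6, 92.6 and 99.9 CPM against 56.8 to 83.9 CPM, without overlap, at 0.40 ± 0.19 (SE; edgeR adjusted p = 0.60). NDUFB4 is a small subunit of the distal arm, and its spread within each group was narrow. NDUFB7 had 54, 48.4, 41.1 and 24.9 CPM against 51.2 to 77.3 CPM (-0.49 ± 0.24), and NDUFV1 lay at -0.57 ± 0.29. Beside these values, summed CPM of the blood markers was 98.6 to 2267 in HD exosomes and that of the keratinocyte markers 27.7 to 1203, with 9 of 11 having reads in each list and PPBP, PF4, KRT14 and FLG at 0. Their part in these differences was not tested.

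Granules of HD-induced and control cells gave no call among the 44 either, against 0.0% of 16750 genes (edgeR), and DESeq2 called no member. No member reached an unadjusted p under 0.05, against 1.28% of all genes (215). The spread among HD granules was wide. In HD granules 2, 4 and 5, 27, 20 and 27 of the 44 genes stood above all 5 control granules, against 19.5%, 28.2% and 25.1% of 15606 genes. HD granule 1 had 40 within the range of the controls, against 84.7% of these genes, and HD granule 3 had 33 below it, against 32.5%. The median log2 fold change was 0.26 for the members and 0.04 for all genes.

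NDUFB4 illustrates the spread, with 167, 628, 46.4, 559 and 541 CPM in HD granules 1 to 5 and 138, 176, 229, 246 and 249 CPM in control granules. Its log2 fold change was 0.89 ± 0.56 (SE), not called. NDUFA12 behaved alike, at 125, 418, 45.1, 383 and 397 CPM against 91.6, 111, 164, 210 and 195 CPM (0.81 ± 0.53). HD granules 2, 4 and 5 were above, and HD granule 3 below, all control granules for both genes. NDUFV3, with the smallest p among the members, had 84.6, 123, 64.9, 153 and 201 CPM against 59.9 to 104 CPM, at 0.51 ± 0.29 (SE), not called. NDUFS3 was at -0.36 ± 0.22, NDUFB7 at -0.43 ± 0.39, with 57.8, 68.6, 25.5, 28.4 and 43.4 CPM against 34.4 to 111 CPM, and NDUFAF1 at -0.12 ± 0.20, with 9.53 to 13.8 CPM against 10 to 16.2 CPM. Without the 3 libraries no member was called, 19 members reached an unadjusted p under 0.05, against 8.43% of all genes, and the median was 0.50. NDUFB4 was then at 1.19, NDUFA12 at 1.10 and NDUFV3 at 0.69, each with an edgeR adjusted p of 0.49.

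The effect of HD in granules less that in exosomes, tested as an interaction over all 20 libraries, was called for no member, against 0.00619% of 16154 genes called higher and 0.0124% called lower. No member reached an unadjusted p under 0.05, against 4.82% of all genes, and DESeq2 called none of the 44. NDUFS6 had the smallest p, at 0.69 ± 0.37 (SE; edgeR adjusted p = 0.88). Its levels were 25.0 to 32.2 CPM in control exosomes, 32.5, 24.2, 14.7 and 19.8 CPM in HD exosomes, 7.95, 16.0, 15.6, 23.5 and 14.5 CPM in control granules and 14.9, 25.5, 15.8, 20.3 and 21.8 CPM in HD granules. NDUFV1 was at 0.91 ± 0.55, NDUFV3 at 0.58 ± 0.38, NDUFAF2 at -0.92 ± 0.54, NDUFA8 at -0.36 ± 0.45 and NDUFS3 at -0.28 ± 0.29 (SE). NDUFA8, a subunit facing the intermembrane space, had 39.8 to 60.4 CPM in control exosomes, 43, 69.1, 63.2 and 62.8 CPM in HD exosomes, 23.8, 48.2, 55.5, 91.5 and 64.2 CPM in control granules and 38.5, 73.0, 23.5, 49.5 and 70.2 CPM in HD granules. All 4 groups overlapped. Although 25 of the 27 members that were higher in control granules had a larger log2 fold change in HD-induced cells, against 50.5% of the 4277 genes called higher there, none of these differences passed the test. Without the 3 libraries 11 members had an unadjusted p under 0.05, against 5.69% of all genes, and none was called, against 0.0115% of all genes called higher and 0.00574% called lower.

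Most reads on the 44 genes were assigned to protein-coding transcripts, 87.2% ± 1.12 in control exosomes and 85.9% ± 1.24 in control granules. Transcripts annotated with a retained intron took 5.64% ± 0.54 and 5.45% ± 0.67. Those classed as protein-coding without a defined coding sequence took 2.31% ± 0.57 and 4.05% ± 0.42, without overlap of the groups. Among them were NDUFC1-202, with 72.9% and 81.8% of NDUFC1 reads, and NDUFAF4-202, with 23.5% and 40.6% of NDUFAF4 reads. Both genes were themselves called higher in granules. The share of this class over all genes is not given here. Behind the even retained-intron totals some genes had a different mixture in the compartments. Of 28 members with a retained-intron transcript 18 could be tested. The share of their reads on it was higher in control granules for 9 and lower for none. Among all 4628 genes tested 60.6% were higher and 1.4% lower, so the members' share did not exceed the background. The test was chosen after the data had been seen.

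NDUFV1 had 5.03%, 3.81%, 6.80%, 7.03% and 4.18% of its reads on retained-intron transcripts in control exosomes 1 to 5. In control granules 1 to 5 it had 36.4%, 35.6%, 42.1%, 42.2% and 35.0%. This was the member with the smallest p, with means of 5.37% ± 1.48 and 38.3% ± 3.60 (edgeR's differential usage test, adjusted p = 4.1e-07). On its protein-coding transcripts alone NDUFV1 was lower in granules by -2.20 on the log2 scale. NDUFAF7 had 24.1% ± 8.13 in exosomes and 65.0% ± 4.84 in granules, and on protein-coding transcripts alone it turned from 0.46 to -1.05 and was called lower. NDUFS8 went from 7.13% ± 1.69 to 18.6% ± 4.40, NDUFB10 from 4.26% ± 5.01 to 21.1% ± 5.71 and NDUFS3 from 3.35% ± 1.01 to 13.0% ± 5.61. Of these 5, NDUFV1, NDUFS8, NDUFB10 and NDUFS3 were called lower in granules as whole genes and NDUFAF7 higher. The remaining 4 members with a higher share were NDUFA5, NDUFA10, NDUFB2 and NDUFS1, the last 2 with under 3% in both. NDUFA10 went from 20.8% ± 3.82 to 30.8% ± 3.51 and NDUFA5 from 7.94% ± 2.93 to 15.1% ± 2.74. As whole genes NDUFA5 and NDUFB2 were called higher and NDUFA10 and NDUFS1 were not called. A higher share was thus seen with each kind of call. HD granules 1 to 5 had 35.7%, 48.9%, 24.2%, 44.1% and 39.3% for NDUFV1, and HD exosomes 1, 2, 3 and 5 had 5.31%, 5.81%, 9.80% and 10.3%. The error of assigning reads between overlapping transcripts is not part of these intervals. On leaving out control granule 3 or 4 the count of 9 fell to 6.

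**Figure D4:**
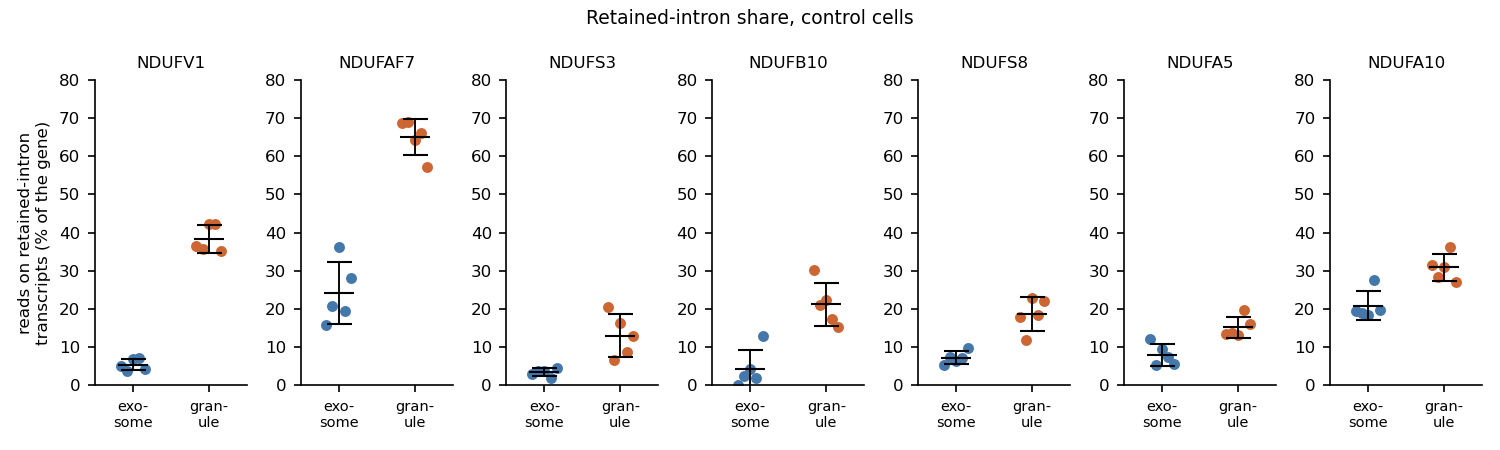
Share of a gene's reads on retained-intron transcripts (vertical axis, percent) in control exosomes and control granules (horizontal axis) for the complex I genes with a higher share in granules and a granule mean of at least 5%, with points for libraries and lines and bars for means and SD. For NDUFV1 the control granules lie at 35.0% to 42.2% and the control exosomes at 3.81% to 7.03%.

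Members that differed in direction also differed in the medians of their sequence features. The 27 higher members had a median coding length of 387 bases and a median of 48.1% of codons ending in G or C. For the 8 lower members these were 637.5 bases and 70.2%, and for the 9 not called 555 bases and 68.4%. The ranges overlapped widely. They were 177 to 1326 bases and 35.3% to 90.7% for the higher members, and 327 to 1395 bases and 45.2% to 84.6% for the lower. For NDUFV3 the values are those of NDUFV3-201, 327 bases and 57.8%. Across the 44 members the control log2 fold change had a Spearman correlation of -0.50 with coding length and -0.36 with the percent of codons ending in G or C. Across 13017 tested genes with a coding transcript the same correlations were 0.08 and -0.47. The relation to GC at the third position therefore ran the same way in all genes, while that to coding length was seen in the members and was near 0 over all genes. All points come from the same 10 libraries and genes are not independent replicates. The members are short, with a median coding length of 450 bases against 1389 for all these genes, and no group of genes of like length was compared.

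**Figure D5:**
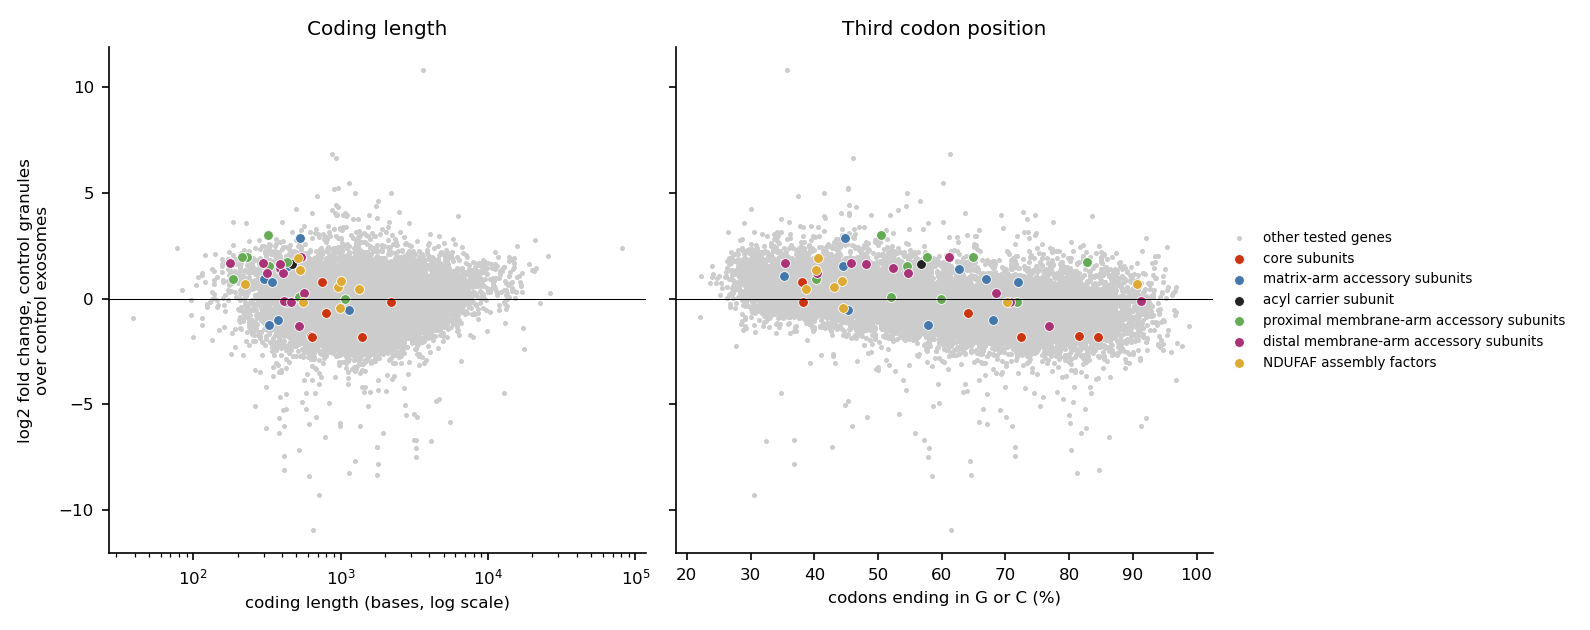
Log2 fold change of control granules over control exosomes (vertical axis) against coding length and against the percent of codons ending in G or C (horizontal axes, the first a log scale), with complex I genes as points coloured by role and all tested genes in grey. Among the members the longer coding sequences and those richer in G or C at the third position tend to lie lower, with Spearman correlations of -0.50 and -0.36.

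Other genes of the pathway did not all follow the members. Of all 14777 genes tested 30.0% were higher and 32.5% lower in control granules. Of 12 assembly factors of complex I without an NDUF symbol 3 were higher and 7 lower in control granules, with a median of -0.51. TMEM126A and TMEM126B, which act in membrane-arm assembly, were higher by 1.60 ± 0.22 and 1.20 ± 0.16, whereas TMEM186 and DMAC2 were lower by -2.13 ± 0.26 and -1.82 ± 0.23 (log2 fold change ± SE). The 7 core subunits encoded in mitochondrial DNA were higher in 5 cases and lower in none, with a median of 1.78. MT-ND3 and MT-ND2 were higher by 2.86 ± 0.52 and 2.80 ± 0.61. Of 41 nuclear-encoded subunits of complexes II to V 25 were higher and 10 lower, with a median of 0.88. The members were alike, with 27 and 8 of 44 and a median of 0.81. The higher levels in granules were thus not particular to complex I. Subunits of complexes II to V included COX7A2 at 2.13 ± 0.15 and ATP5MK at 1.80 ± 0.12. UQCRC1, a core subunit of complex III, was at -2.29 ± 0.13. In HD-induced cells the counts of higher and lower genes were 1 and 2 of 12, 5 and 0 of 7, and 17 and 2 of 41. The members had 19 and 2 of 44, and the shares of all genes were 11.9% and 5.77%. No gene of these other lists was called between HD and control in either compartment.

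Pseudogene copies of the members took few reads. The files named 61 pseudogenes of 20 members, and together they held at most 0.293% of the members' reads in any library. NDUFA9P1 had the most, 349 reads over all libraries, followed by NDUFAF4P1 with 230, NDUFAF4P2 with 89 and NDUFAF4P4 with 68. In control libraries the pseudogenes of NDUFA9 and NDUFAF4 came to 2.33% and 2.08% of the reads of the parent gene. Adding pseudogene reads to their parents ended 1 call, that of NDUFA9.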

How the data were processed

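Total RNA of 20 libraries was measured by stranded paired sequencing of 100 bases, per the labels' protocols. Per the submitters' processing notes, reads went through Trimmomatic, cutadapt and FastQC and were quantified with Salmon on GRCh38.p14. No source used here gives tool versions or the annotation release. The deposited files give per transcript an expected count (the estimated count of reads) and a TPM value, corrected for length by the authors. Each lists 921552 entries, 251955 of them named transcripts. The other 669597, without a gene name, stayed out of the gene tests and held 24.9% to 86.6% of reads.

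Expected counts were summed per gene and rounded. Genes passed filterByExpr, TMM factors were used, and groups were tested with edgeR 4.0.16 (robust quasi-likelihood, R 4.3.3), with p-values adjusted over all genes and a threshold of 0.05. Only the compared groups entered each fit, and all 20 libraries the interaction. The SE is the log2 fold change divided by the square root of F. Retained-intron shares used diffSpliceDGE of edgeR. Scripts were tested on simulated data. Coding sequences, GC content and lengths come from GENCODE 29 transcripts matched by transcript identifier, without its version. Apart from HD exosome 4, too shallow to tell, no libraries of a group agreed within sampling noise.

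Chosen for naming with levels were the 5 called members per direction with the smallest p in control cells, 3 per direction in the other comparisons and the core subunits. Their levels are given by library or as a range, and not for every group. Members and lists were chosen with earlier results of these data known. One blood marker of the list is not reported here. Alternatives were other factors, DESeq2 1.42.0, limma 3.58.1 (voom; log2 of TPM + 1), no filter, protein-coding transcripts, pseudogene reads, length and GC corrections, the replicate block and left-out libraries.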

Additional observations from a re-analysis of the deposited data

Results flagged for a closer look

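Among 184 sets of 4 or 5 libraries, each holding 1 member's level or the summed member reads in 1 group, 7 had a library whose gap to the nearest other library was large against the range of the set. Chance alone gives about 1 in 20. HD granule 3 was such a library for NDUFV1, at 163 CPM against 32.9 to 56.4 CPM in the other HD granules, and for NDUFAF5, at 14.9 CPM. Control granule 2 was one for NDUFS7, at 54.1 CPM, and control granule 1 for NDUFC1, at 76.1 CPM. Control exosome 1 was one for NDUFA11, at 133 CPM. HD exosome 1 was the single HD exosome library with NDUFS5, at 10.3 CPM. HD exosome 2 had 295 member reads per 1000000 reads, against 1627 to 1771 in HD exosomes 1, 3 and 5. This library had 86.6% of its reads on entries without a gene name. Per 1000000 named-gene reads it had 2194, against 2503 to 2652 in HD exosomes 1, 3 and 5.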

How the results depend on the processing

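In control cells the 22 alternatives gave 21 to 27 higher and 7 to 9 lower members, against 15.2% to 34.5% and 12.9% to 37.6% of all genes. With 1 library left out the counts were 23 to 27 and 7 to 9, against 27.8% to 33.2% of all genes in each direction. Of the 27 higher members 18 kept their call in all 22, of the 8 lower 5 did (NDUFV1, NDUFS7, NDUFS8, NDUFV3, NDUFB10), and of the 9 not called 1 did (NDUFA8). Signs turned with protein-coding transcripts only for NDUFAF7 (-1.05) and with the GC correction for NDUFA5 (-0.24), NDUFA11 (0.56), NDUFB7 (0.44), NDUFB11 (0.62) and NDUFAF3 (0.62). In HD-induced cells the 2 lower members became 0 with DESeq2's size factors, DESeq2, no filter or log2(TPM + 1), 1 with the length correction, and 5 with voom or without the 3 libraries. The share of all genes that was lower was 4%, 3.49%, 5.7% and 0.0208% in the settings with 0. It was 5.31% with the length correction, 21.7% with voom and 16.4% without the 3 libraries. The 19 higher ones became 1 with log2(TPM + 1), against 0.852% of all genes, and NDUFS3 and NDUFB10 turned to 0.011 and 0.31. HD exosome 4, with 2 member reads, had the same weight in that fit as the other libraries. On that scale the members' median of HD over control exosomes was -1.29, against -0.02 in the main fit. With 1 library left out the counts were 7 to 28 higher and 0 to 5 lower, against 5.74% to 21.3% and 2.87% to 17.4% of all genes. The 2 lower members under the GC correction or without HD exosome 5 were NDUFS7 and NDUFS8. The cause was not tested. Between HD and control exosomes 0 to 3 members were called with 1 library left out, against at most 0.565% of all genes called higher and 3.23% lower. In granules and for the interaction the count was 0 to 0. The retained-intron count of 9 was 6 to 9 with 1 library left out. Upper-quartile factors could not be fitted where HD exosomes entered, since HD exosome 4 has an upper quartile of 0.

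Replicate numbers are shared by the groups, and the labels give no pairing. Libraries with the same number deviated together in part: r was over 0.1 in 12 of 20 pairs, at 0.20 to 0.32 for number 1 and 0.35 to 0.61 for number 5, and down to -0.27 for the others, with 5 of 20 closest to their own number. They were therefore not treated as pairs. With the replicate number as a block, 24 members were higher and 5 lower in HD granules, against 18% and 9.81% of all genes, and 1 was called between HD and control exosomes (NDUFAF2, 1.23, edgeR adjusted p = 0.024), against 0.348% called higher and 1.94% lower. The block left 27 higher and 8 lower in control cells, against 29.6% and 33.3% of all genes, and 9 for the retained-intron share. Depth limits HD exosomes most, where member reads were 19643, 4261, 3432, 2 and 7518 in libraries 1 to 5.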
